A study of Homo sapiens with 3 samples.

Results

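TXNIP and its relatives of the arrestin-domain family were followed with the thioredoxin that TXNIP binds and the pair of transcription factors that control it, in tongue carcinoma cells depleted of AKT1. The 8 genes were TXNIP, ARRDC1, ARRDC2, ARRDC3, ARRDC4, TXN, MLXIP and MLX, out of 18239 genes on the array. All 28 probe sets annotated to one of these genes alone were used. The genes were chosen by gene name, starting from the high TXNIP values in both siAkt1 libraries, so the values of this contrast are given as a description, with no p-value for a member. The labels call the cells GFP-SAS; SAS is an established human line from a carcinoma of the tongue. What the GFP prefix stands for, and whether the culture is a single clone, is not given in the sources used here. All 3 samples received 10 nM of an siRNA, a double-stranded RNA that triggers the destruction of mRNA with its sequence, for 24 h, so the control cells were transfected too. The control, siNT, carried a non-targeting siRNA and gave 1 library. AKT1 was targeted with siAkt1-22 and siAkt1-58, which gave 1 library each.

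TXNIP is an alpha-arrestin, a scaffold protein that binds the reduced form of thioredoxin and promotes the removal of glucose transporters from the cell surface. Its gene responds strongly to glucose through MondoA, the product of MLXIP, which pairs with MLX and binds E-box elements in the promoter when sugar phosphates accumulate. AKT is known to phosphorylate the TXNIP protein, and FOXO transcription factors, which AKT holds out of the nucleus, have been tied to its gene. The other ARRDC proteins share the arrestin fold and recruit ubiquitin ligases of the NEDD4 family to membrane receptors through PPxY motifs.

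The promoter stretches of TXNIP and of its relative ARRDC4 are shown because both genes are textbook targets of MondoA. Their values here differed, but ARRDC4 was dim on the array, so its values do not show that it kept its level. They are the 250 bases before the RefSeq start site (assembly GRCh38.p14), written 5′ to 3′ on the gene's strand. TXNIP lies on the minus strand and the stretch covers chr1:145996580-145996829, before the more upstream of its start sites in the table. ARRDC4 lies on the plus strand and the stretch covers chr15:97960453-97960702. Capitals mark each match to the E-box-like hexamer CACGNG on either strand.
TXNIP: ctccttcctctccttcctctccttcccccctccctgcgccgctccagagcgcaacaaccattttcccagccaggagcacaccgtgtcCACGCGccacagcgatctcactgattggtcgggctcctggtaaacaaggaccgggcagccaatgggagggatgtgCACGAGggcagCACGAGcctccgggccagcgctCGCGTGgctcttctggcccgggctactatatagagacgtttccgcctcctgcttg
ARRDC4: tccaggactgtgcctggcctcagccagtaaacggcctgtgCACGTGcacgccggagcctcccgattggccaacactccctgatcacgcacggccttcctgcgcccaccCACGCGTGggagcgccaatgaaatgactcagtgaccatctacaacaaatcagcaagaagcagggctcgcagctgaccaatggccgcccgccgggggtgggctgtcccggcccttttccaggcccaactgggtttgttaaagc

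In the TXNIP stretch, 2 of the hexamers lie 5 bases apart in the same orientation, from position -88 to -72 counted from the start site. This arrangement (CACGNG, any 5 bases and CACGNG again) was found in 20 of 35116 promoter windows of 300 bases (0.057%), searched on both strands from 250 bases before to 50 bases after the start. The TXNIP window was the only one of the 11 windows of the 8 genes that held it. The perfect E-box CACGTG, which is also a match to the hexamer, was present in the windows of ARRDC4 (position -210) and MLX (position -50) and in 7.26% of all windows. The hexamer CACGNG was present in 6 of the 11 windows and in 30.5% of all windows. The forkhead motif GTAAACA, bound by FOXO factors, was matched in TXNIP (position -124) and in a window of ARRDC3, against 3.42% of all windows. CCAAT, the box bound by NF-Y, was matched in 7 of the 11 windows, 2 times in TXNIP and 3 times in ARRDC4, and in 34.6% of all windows. These matches are letters in a window and do not show that a factor was bound.

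**Figure D1:**
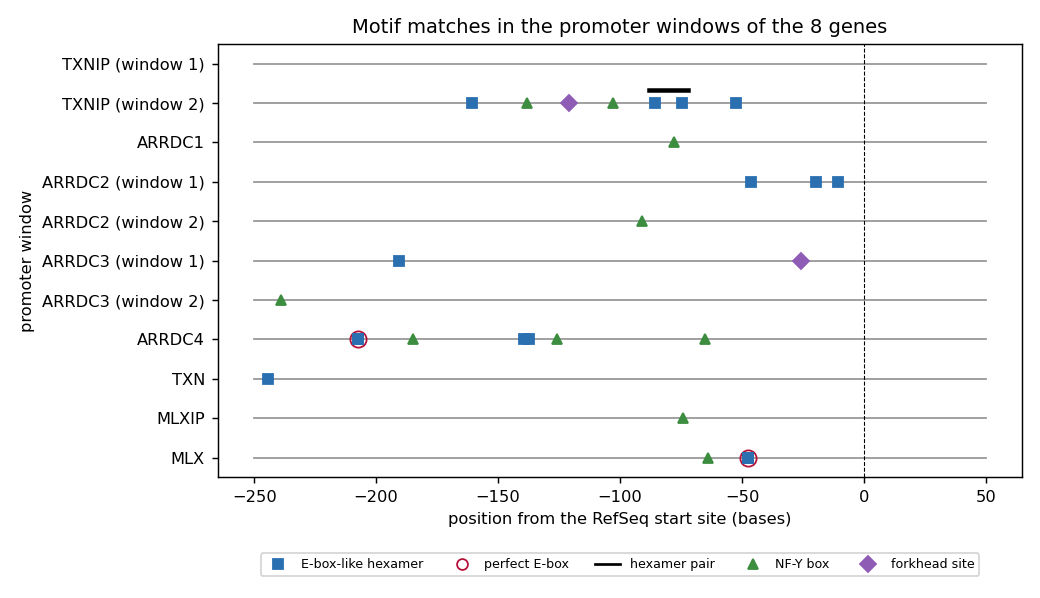
Motif matches in the 11 RefSeq promoter windows of the 8 genes, with the position from the start site in bases on the x axis and a line per window. Squares are E-box-like hexamers, open circles perfect E-boxes, triangles NF-Y boxes, diamonds forkhead sites and the bar a pair of hexamers 5 bases apart, which only the upstream TXNIP window holds.

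All values below are log2 expression values per probe set as deposited, and differences are on the log2 scale, siAkt1 library minus siNT, unless stated. AKT1 itself read 6.75 with siNT, 3.67 with siAkt1-22 and 3.47 with siAkt1-58. Of the epithelial markers on the array, 6 of 7 lay above the level of 3.93 used as the filter on dim genes, with KRT14 below it. No leukocyte marker of 4 lay above it, and the fibroblast and endothelial markers that did (PDGFRB, PECAM1 and VWF) read at most 4.50. The 24 probe sets of the poly-A RNAs spiked in before labelling had a median difference of -0.56 with siAkt1-22 and -0.01 with siAkt1-58, and the part of this shift in the values of the siAkt1-22 library was not tested. Every difference rests on the same single siNT value, and precision is limited by the number of arrays. The SD given with n = 2 is the spread between the siRNAs, which holds whatever differs between their sequences. In RNA from a whole culture, fewer cells that express a gene and less of its RNA per cell cannot be told apart.

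TXNIP read higher than siNT with both siRNAs in each of its 5 probe sets. The brightest, 11756431_s_at, read 5.79 with siNT, 7.96 with siAkt1-22 and 7.65 with siAkt1-58. The siNT library was the lowest of the 3 and both siAkt1 libraries lay close together. The differences of 2.18 and 1.87 are 4.52-fold and 3.65-fold, with a mean of 2.02 ± 0.22 (SD, n = 2).

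The other TXNIP probe sets gave the same order of libraries. The next, 11752765_s_at, read 5.69 with siNT, 7.63 with siAkt1-22 and 7.47 with siAkt1-58. In 11748544_s_at it was 5.50, 7.15 and 6.84 in the same order of libraries. The widest difference was in 11717190_s_at, where 4.40 with siNT stood against 7.29 with siAkt1-22 and 6.83 with siAkt1-58, which is 7.40-fold and 5.39-fold. The dimmest, 11748543_a_at, read 3.91 with siNT, just under the filter level, 5.84 with siAkt1-22 and 5.26 with siAkt1-58.

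Across the TXNIP probe sets the difference ran from 1.65 to 2.89 with siAkt1-22 and from 1.35 to 2.43 with siAkt1-58. In all 5 the siAkt1-22 library was the highest, by 0.16 to 0.58 over siAkt1-58. The gene passed the filter on dim genes by its siNT value alone. Among the 12779 genes tested it was number 26 from the top with siAkt1-22, number 15 with siAkt1-58 and number 5 by the smaller of the differences. Of 1874 tested genes with at least 5 probe sets, TXNIP was the 1 gene (0.0534%) in which every probe set was at least 2-fold higher than siNT in each siAkt1 library. This place among genes follows from the contrast by which the list was drawn up and is no separate evidence.

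**Figure D2:**
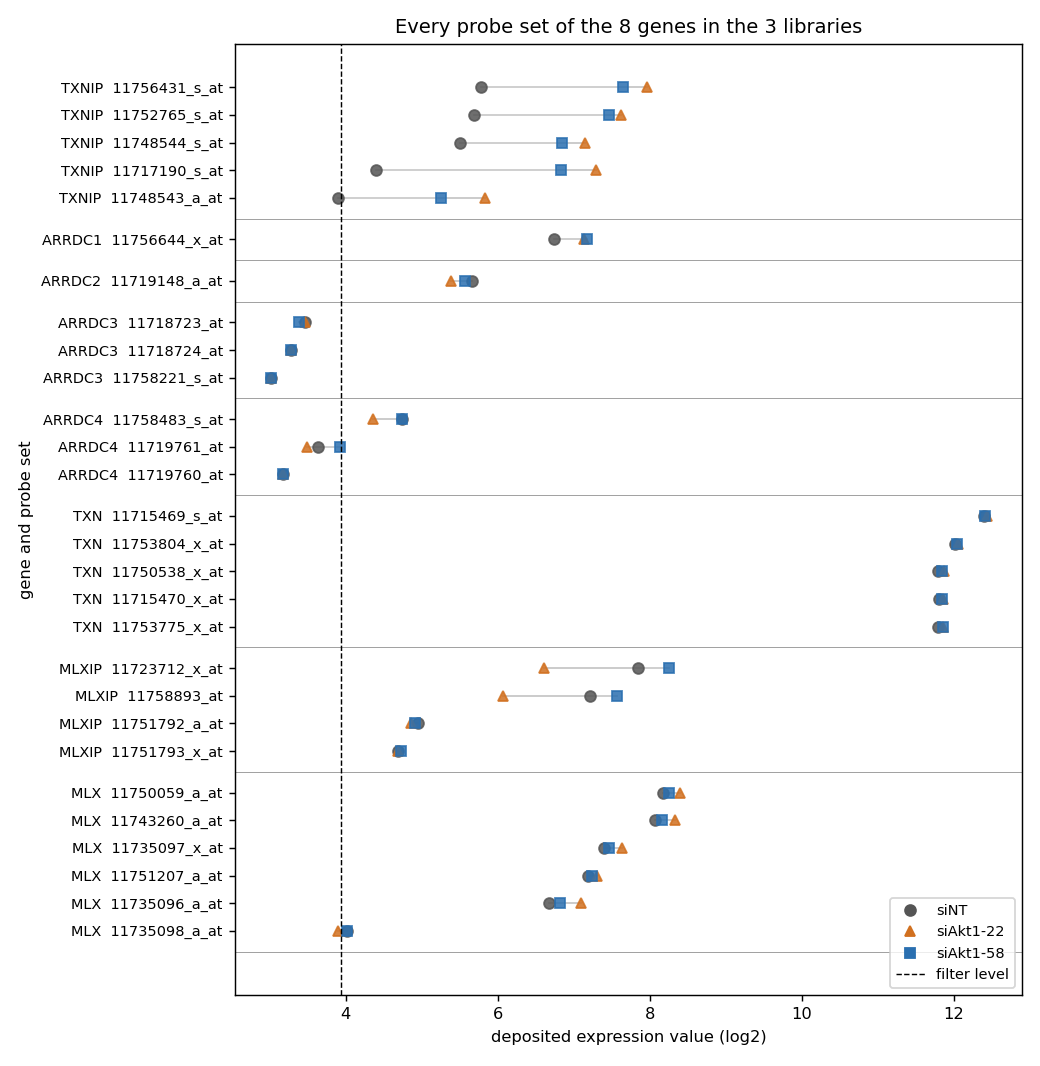
Deposited log2 value (x axis) of each of the 28 probe sets (y axis, by gene, brightest first) in siNT (circles), siAkt1-22 (triangles) and siAkt1-58 (squares), with the filter level of 3.93 as a dashed line. The siNT circle lies left of both other libraries in all 5 TXNIP probe sets, the upper MLXIP probe sets have siAkt1-22 alone on the left, and the symbols of TXN and ARRDC3 nearly coincide.

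The relatives of TXNIP gave small differences. ARRDC1, which recruits the ESCRT machinery to bud vesicles from the plasma membrane, read 6.74 with siNT, 7.13 with siAkt1-22 and 7.17 with siAkt1-58 in its 1 probe set. Both siAkt1 libraries were above siNT, by 0.40 and 0.44 (mean 0.42 ± 0.03, SD, n = 2). ARRDC2, an alpha-arrestin less studied than the others, read 5.67 with siNT, 5.38 with siAkt1-22 and 5.57 with siAkt1-58, so that both siAkt1 libraries were slightly below siNT, by -0.28 and -0.10.

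ARRDC4, the relative of TXNIP that shares its response to glucose, did not follow it in the 1 probe set above the filter level. That probe set, 11758483_s_at, read 4.74 with siNT, 4.36 with siAkt1-22 and 4.74 with siAkt1-58. The siAkt1-22 library was the low one and the others were equal. Of its dimmer probe sets, 11719761_at read 3.64, 3.50 and 3.92 in the order siNT, siAkt1-22 and siAkt1-58, and 11719760_at read 3.18 in all 3 libraries. ARRDC3, an adaptor in the turnover of the beta-2 adrenergic receptor and of integrin beta-4, had 3 probe sets between 3.02 and 3.47, all below the filter level, with differences from -0.09 to 0.003. ARRDC3 was therefore the 1 member that entered no count over tested genes. Dim signal understates differences, so these values do not show that ARRDC3 or ARRDC4 kept its level.

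TXN, the thioredoxin whose active site TXNIP occupies, was close to equal in the 3 libraries. Its brightest probe set, 11715469_s_at, read 12.39 with siNT, 12.43 with siAkt1-22 and 12.41 with siAkt1-58. All 5 TXN probe sets were above siNT in both siAkt1 libraries, by 0.04 to 0.07 with siAkt1-22 and by 0.02 to 0.06 with siAkt1-58. The highest value in the whole table was 13.4, and whether so bright a signal compresses differences was not tested.

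MLXIP, which encodes MondoA, split by siRNA. Its brightest probe set, 11723712_x_at, read 7.85 with siNT, 6.61 with siAkt1-22 and 8.25 with siAkt1-58. The siAkt1-22 library was the lowest and siAkt1-58 the highest, with differences of -1.23 and 0.41. A second bright probe set, 11758893_at, read 7.21 with siNT, 6.06 with siAkt1-22 and 7.57 with siAkt1-58, which is 2.22-fold below siNT with siAkt1-22 and 1.28-fold above it with siAkt1-58. The remaining probe sets, 11751792_a_at and 11751793_x_at, read between 4.69 and 4.95 and differed by -0.09 to 0.05. TXNIP was highest in the library where the bright MLXIP probe sets were lowest, in 1 library per siRNA and without a test.

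Between the siRNAs MLXIP differed by -1.64 (siAkt1-22 minus siAkt1-58) in its brightest probe set, and averaging its 4 probe sets gave -0.81. A gap of at least 2-fold between the siRNAs in either direction was found in 10.3% of the 12779 genes. MLX, the partner that MondoA needs to bind DNA, read 8.18 with siNT, 8.40 with siAkt1-22 and 8.26 with siAkt1-58 in its brightest probe set. Of its 6 probe sets 5 were above siNT in both siAkt1 libraries, by at most 0.42 with siAkt1-22 and 0.15 with siAkt1-58, and the dimmest was at -0.12 and 0.

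Counted by gene, 1 of the 7 members that passed the filter (TXNIP) was at least 2-fold higher than siNT in each siAkt1 library, beside 0.736% of all genes tested. None was at least 2-fold lower in each, beside 1.17% of all genes. Counted by probe set, 5 of the 23 above the filter level were at least 2-fold higher in each siAkt1 library, all of them TXNIP. Of these, 11748543_a_at read under that level with siNT and passed only through its siAkt1 values. None of the 23 was at least 2-fold lower in each. Beside these stand 0.565% higher and 1.11% lower of 31677 probe sets with 1 gene. Those had passed a filter at the 30th percentile of probe sets, which is not the level used for the 23. MLXIP was at least 2-fold lower with siAkt1-22 alone, as were 5.97% of all genes. Both counts come from the contrast by which the members were listed and carry no weight beyond the values themselves. Both siAkt1 libraries were above siNT for TXNIP, ARRDC1, TXN and MLX (30.9% of all genes), below it for ARRDC2 (21.4%) and on opposite sides for MLXIP (25.6%). The median difference of the 7 members was 0.04 with siAkt1-22 and 0.08 with siAkt1-58, beside 0 and 0 over all genes. Outside TXNIP and MLXIP, none of 19 probe sets differed from siNT by more than 0.44 in either library.

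**Figure D3:**
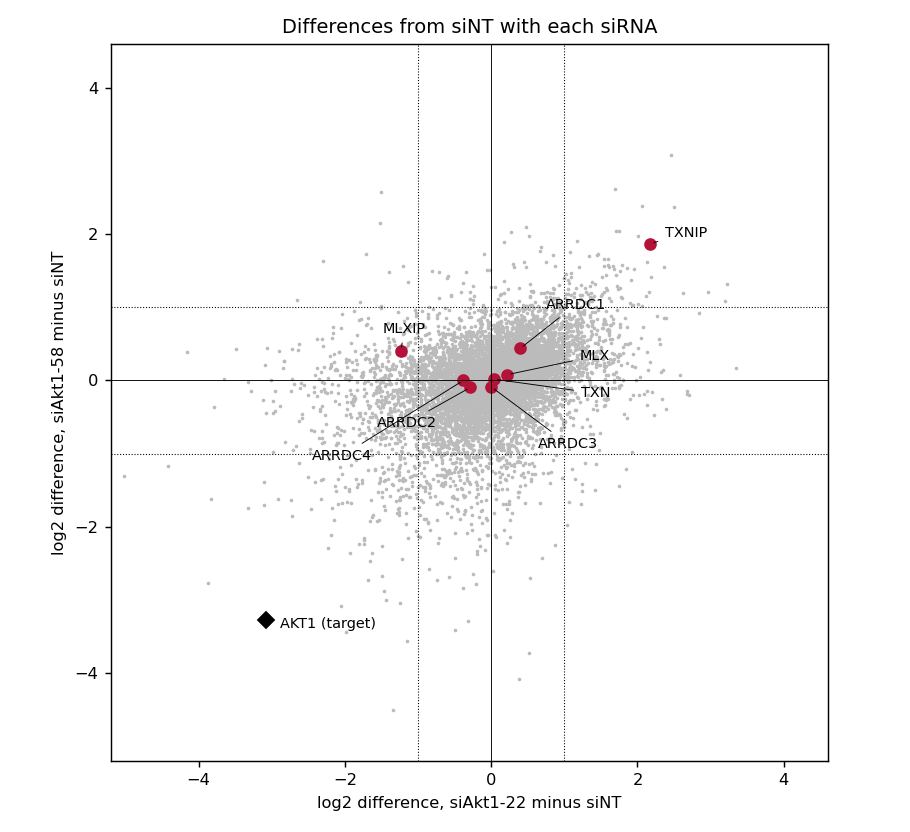
Difference from siNT with siAkt1-22 (x axis) and siAkt1-58 (y axis), both log2, for the 12779 genes tested (grey) and the brightest probe set of each of the 8 genes (red), with AKT1 as a diamond and dotted lines at 2-fold. TXNIP stands in the upper right at 2.18 and 1.87, MLXIP at -1.23 and 0.41, and the other genes lie near the origin.

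The genes with the pattern most like that of TXNIP were found by the Euclidean distance between pairs of differences over the 3 libraries. PPA2, a mitochondrial pyrophosphatase, was nearest at a distance of 0.20 (differences of 2.01 and 1.98), followed by the adhesion molecule NECTIN4 at 0.25 (2.13 and 1.62). GDF15, a stress-induced cytokine, lay at 0.37 (2.36 and 1.55), and the lipid kinase PI4K2A at 0.41 (1.95 and 1.53). C12orf76 (1.86 and 1.54) and the nuclear receptor coactivator PNRC1 (2.18 and 1.42) both lay at 0.45. Of the 9 PPA2 probe sets, 5 were at least 2-fold higher in both libraries, from 1.27 to 2.21, and the others lay between -0.01 and 0.06, 2 of them below the filter level. Both PI4K2A probe sets were higher, the other one by 1.35 and 0.91, and for NECTIN4 the least responsive probe set was at 0.41 and 0.22. The other PNRC1 probe sets were at 1.45 and 0.69 and, below the filter level, at 0.25 and 0.08. GDF15 and C12orf76 had 1 probe set each.

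Genes that work with the family were described through 8 companion lists, of which 75 genes passed the filter on dim genes. Apart from AKT1, the siRNA target, none of the other 74 was at least 2-fold from siNT in the same direction in each siAkt1 library. This count used the brightest probe set of each gene. Over all genes 0.736% were higher and 1.17% lower, so that a count of 0 among the 74 is near the background. None passed limma, which set both siAkt1 libraries against siNT and called 0 of 12779 genes higher and 0 lower (0% in either direction, lowest Benjamini-Hochberg adjusted p = 0.607), while 954 reached an unadjusted p below 0.05. With 1 residual degree of freedom, calls of this kind could hardly be made, so the 0 says nothing about which genes were stable. Whether the libraries are from separate cultures is not given in the labels, and the p-values reflect only the spread among these samples. Of the 75 genes, 32.0% were above siNT in both siAkt1 libraries and 22.7% below it in both, beside 30.9% and 21.4% over all genes.

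Among the dimerisation partners and rivals of MLX, 5 of 9 genes were above siNT in both libraries and 1 was below, with medians of 0.03 and 0.18. MAX, the hub of the MYC network, was at 0.36 and 0.46, and the repressor MXI1 at 0.38 and 0.52. A dimmer MAX probe set, 11728150_at, was at -0.73 and -0.57. MGA, which also pairs with MAX, was at -0.95 with siAkt1-22 and -0.02 with siAkt1-58. Outside the rule for named genes and with its values seen, the repressor MXD1 was at -0.39 with siAkt1-22 and 1.33 with siAkt1-58. MLXIPL, likewise, which encodes the relative of MondoA called ChREBP, was at 0.05 and 0.07.

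In the thioredoxin system 6 of 21 genes were above siNT in both libraries and 6 below, with medians of 0.02 and 0. The peroxiredoxin PRDX2, which thioredoxin recharges, was at 0.50 and 0.39 and higher in all 5 of its probe sets. The mitochondrial thioredoxin reductase TXNRD2 was at 0.80 and 0.35, and the cytosolic one, TXNRD1, at -0.07 and -0.27. SRXN1, which repairs overoxidised peroxiredoxins, was at -0.38 and -0.13. Glutaredoxin, GLRX, named here after its values were seen, was at -1.88 with siAkt1-22 and 0.95 with siAkt1-58.

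The glucose uptake genes had medians of 0 and 0.01, with 4 of 11 above siNT in both libraries and 1 below. SLC2A12, a glucose transporter, read 5.07 with siNT, 7.34 with siAkt1-22 and 5.95 with siAkt1-58, differences of 2.27 and 0.89. A dimmer SLC2A12 probe set was at 3.21 and 1.28, past 2-fold with both siRNAs. The dimmest, 3.50 with siNT, was at 0.44 and -0.19. HK2, the inducible hexokinase, was at 0.48 and 0.48 in its brighter probe set and at 0.02 and 0 in the other. SLC2A6, another family member, was at -0.04 and -0.34. SLC2A1, the transporter GLUT1 that TXNIP removes from the membrane, was singled out after its values were seen. It read 9.20 with siNT, 7.60 with siAkt1-22 and 9.25 with siAkt1-58. Its 4 probe sets were all below siNT with siAkt1-22, from -1.61 to -0.57, and between 0 and 0.09 with siAkt1-58. The siAkt1-22 library was the low one. At least 2-fold lower than siNT in that library were 6 of the 75 companion genes, AKT1 among them, and 5.97% of all genes.

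Among the regulators and partners of the TXNIP protein, 4 of 9 genes were above siNT in both libraries and 3 below. The medians were -0.29 and 0.35. AKT1 and AKT2 were among those below. AKT2, named after its values were seen, was at -0.97 with siAkt1-22 and -0.02 with siAkt1-58. PRKAA1, a catalytic subunit of AMPK, the energy sensor that marks TXNIP for degradation, read 8.55 with siNT, 7.57 with siAkt1-22 and 7.13 with siAkt1-58. Its differences were -0.98 and -1.42 there, and -0.19 and -0.41 in the next brightest probe set. FOXO3 was at 0.55 and 0.62, and above siNT in both libraries in all 3 of its probe sets. Likewise named after their values were seen, FOXO1 was at -0.34 and 0.37 and FOXO4 at 0.50 and 0.20. USP5, a deubiquitinase, was at 0.46 and 0.35. DDIT4, the stress protein REDD1 that binds TXNIP, was at -0.29 and 1.20; it is named after its values were seen.

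The ubiquitin ligases of the NEDD4 family had medians of -0.05 and 0, with 1 of 8 above siNT in both libraries and 2 below. ITCH, the ligase that targets TXNIP for degradation, was at -0.12 and -0.08. SMURF2 was at -0.83 and -0.11, and WWP2 at 0.44 and 0.22. Of 7 ESCRT genes 2 were above siNT in both libraries and 1 below (medians -0.02 and 0.09). TSG101, the subunit that ARRDC1 recruits, was at 0.17 and 0.39, HGS at 0.14 and 0.09, and the ATPase gene VPS4B at -1.38 and -0.06.

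Of 5 other genes with an arrestin fold 2 were above siNT in both libraries and 1 was below (medians 0.05 and 0.21). The retromer subunit VPS26A was at 0.77 and 0.52, higher in all 4 of its probe sets, while VPS26B was at 0.05 and 0.26 and SAG, the visual arrestin, at -0.05 and -0.05. Of 5 receptor and transporter genes whose proteins are cargo of the family, 2 were below siNT in both libraries and none was above. Their medians were -0.36 and 0.29. F2R, the thrombin receptor, read 6.01 with siNT, 4.87 with siAkt1-22 and 5.01 with siAkt1-58. Its difference of -1.14 with siAkt1-22 was past 2-fold and that of -0.996 with siAkt1-58 fell just short. The insulin receptor gene INSR was at -0.36 in both, from 4.64 with siNT.

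**Figure D4:**
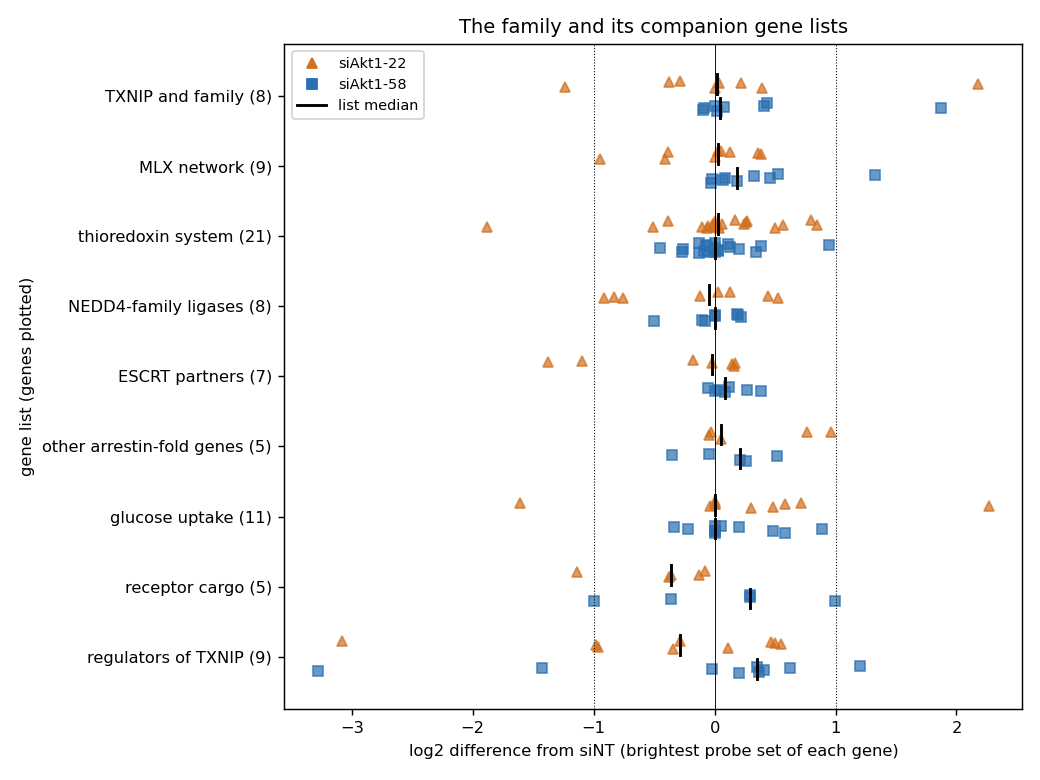
Difference from siNT (x axis, log2, brightest probe set of each gene) for the 8 genes and the 8 companion lists (y axis, with the number of genes plotted), with siAkt1-22 as triangles, siAkt1-58 as squares and black bars at the medians. TXNIP, at 2.18 and 1.87 in the top line, has both symbols past the 2-fold line on the right, as no gene of the companion lists does.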

How the data were processed

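The deposited table holds log2 expression values for 49386 probe sets in 3 libraries, made by the authors from Affymetrix arrays hybridised with RNA labelled by a 3' in vitro transcription kit from 10 ng, per the labels. The submitters' processing notes name RMA and give no settings; RMA equalises array distributions and summarises probes by median polish, which often ties values. In all 20.7% of probe sets were equal in the 3 libraries, as were 2 of the 28 described. The log2 scale was inferred from the range of the values (2.20 to 13.4).

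Of the probe sets, 45253 carried 1 gene in the platform annotation, with symbols updated through Entrez identifiers where possible. The probe set with the highest mean stood for its gene, and the 12779 genes whose mean reached the 30th percentile were tested. Probe sets ending in _s_at or _x_at can match transcripts of other genes. Differences of each siAkt1 library from siNT were counted at 2-fold. Limma 3.58.1 in R 4.3.3 (lmFit, eBayes, two-sided, Benjamini-Hochberg, threshold 0.05) compared both siAkt1 libraries, whose labels give 1 genotype, with siNT. It had a prior of 0.467 degrees of freedom and assumes that siNT varies like the siAkt1 libraries. The fit and the counting were run on simulated data with known shifts. The pass condition there was that the fit recovered the mean shift.

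Members, companion lists, motifs and the rule for named genes were chosen with earlier results of these data known. The rule named all members, AKT1, the 6 genes nearest to TXNIP and, of each companion list, up to 2 at each end of the smaller difference and any gene past 2-fold in both libraries; ties at 0 went unnamed except where the text says that a gene was singled out. Alternatives were averaged probe sets, probe sets as the unit, median centring, quantile normalization, other filters, a limit of 1.5-fold, an intensity trend in the prior and each siAkt1 library left out. Promoter sequences are from RefSeq (GRCh38.p14), matched by symbol for all 8 genes. Probe sets with several genes, unlisted probe sets and controls entered no count of genes.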

Additional observations from a re-analysis of the deposited data

How the results depend on the processing

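TXNIP remained at least 2-fold higher than siNT in each siAkt1 library used under every alternative with the gene as the unit, with a mean difference from 1.87 to 2.18. No member was at least 2-fold lower in each library under any alternative except siAkt1-22 alone, which counts MLXIP (0 to 1 with a library left out). The MLXIP difference between the siRNAs, -1.64 as reported, was -1.65 with median centring, -1.63 with quantile normalization and -0.81 with averaged probe sets, which include the dimmer ones. The genes at least 2-fold higher and lower than siNT numbered 94 and 150 as reported, 43 and 99 with averaged probe sets, 179 and 352 with probe sets as the unit and 409 and 458 with a limit of 1.5-fold. With 1 siAkt1 library left out they numbered 197 to 562 and 457 to 763. Companion genes numbered 0 higher and 1 lower as reported, 1 and 3 with a limit of 1.5-fold, 1 to 2 and 2 to 6 with a library left out, and 0 lower with a filter at the 50th percentile, which removes AKT1. Limma called 0 genes under all settings run, with 485 to 2700 at an unadjusted p under 0.05. No paired analysis was possible because the labels give no replicate numbers and siNT has 1 library. Dim signal limits what can be read for ARRDC3 and ARRDC4.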

Other observations

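Besides TXNIP, 19 genes in the RefSeq promoter table had a window with the pair of E-box-like hexamers 5 bases apart, and 15 of them were among the genes tested. Their median difference from siNT was 0.28 with siAkt1-22 and 0.09 with siAkt1-58, beside 0 and 0 over all genes. Of the 15, 9 were above siNT in both siAkt1 libraries, a larger share than the 30.9% over all genes. In both libraries 2 were below siNT (21.4% of all genes). None was at least 2-fold higher or lower in each. A count of 0 among 15 genes is near the background, which was 0.736% and 1.17% of all genes. Whether the other counts differ from the background was not tested. The genes named next were picked by no rule, with their values seen. GFPT1, the entry enzyme of hexosamine synthesis, was at 0.46 and 0.06, and the collagen hydroxylase subunit P4HA1 at 0.44 and 0.14. TCEAL4 was at 0.64 and 0.34, and the nuclear transport GTPase gene RAN at -0.09 and -0.31. The widest difference with siAkt1-22 was in STX12, at 0.98 and 0.09. The list of genes with the pair was drawn up from sequence after the differences had been seen, and no test was run on it.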
